A study of Mus musculus with 6 samples.

Results

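Among the CD45+ cells of mouse solei, 738 macrophages were selected by their own transcripts as candidates for a Trem2, Spp1 and Gpnmb programme. A barcode was a member where it held at least 200 genes and at most 10% mitochondrial UMIs, a UMI (1 counted mRNA molecule) of at least 2 of C1qa, C1qb and C1qc, a UMI of at least 2 of Trem2, Spp1 and Gpnmb, a UMI of at most 1 of the resident macrophage genes Lyve1, Cd163, Vsig4, Fcna, Cd209f and Ccl24, and 0 UMIs of Cd3e, Cd79a, Ncr1, Flt3 and Cxcr2. These cells, called gated macrophages here, were 738 of 12520 kept cells, of 15467 barcodes and of 4446 macrophages that met the C1q and other-cell criteria (C1q macrophages). The levels of the genes in the rule are therefore descriptions of how the cells were chosen. The solei came from male C57BL/6 mice that were young (4-5 mo) or old (20-22 mo). At each age, 1 pool was an ambulatory control, 1 had undergone hindlimb unloading (HU) and 1 had been returned to loading for 4 days after HU (reload). The solei of a group were pooled, live CD45+ DAPI- cells were sorted, and each pool gave 1 droplet library, so no group had a replicate. The labels carry a different number prefix for control, HU and reload, shared by young and old, so every difference between treatments cannot be told apart from what that prefix stands for. They also carry another flow cell string for control than for HU and reload.

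Trem2 is a lipid-sensing receptor that signals through the adaptor Tyrobp, Spp1 encodes the secreted matrix protein osteopontin, Gpnmb is a transmembrane glycoprotein of the endolysosomal system, and Apoe carries lipid out of the cell. In fat, atherosclerotic plaque and injured tissue these genes mark macrophages that take up lipid and cell debris, and they accompany fatty acid binding proteins, cathepsins and other lysosomal genes. In muscle, unloading wastes the soleus, and returning load damages its fibres and draws in monocytes that become macrophages and clear debris.

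The libraries held 1675 to 3676 barcodes and 5782054 to 22749375 UMIs. The share of barcodes over the mitochondrial limit ran from 4.12% in young control to 27.5% in young HU and 33.3% in young reload. Gated macrophages numbered 95 (young) and 29 (old) in control, 14 and 24 in HU, and 336 and 240 at reload. Their summed UMIs ran from 59279 in young HU to 3553343 in young reload, so that 3 UMIs in young HU already stood for 50.6 CPM, the scaled share of a gene in all UMIs of the same cells. Gated cells were deeper than the other 3708 C1q macrophages, with medians of 9088 and 5282.5 UMIs per cell. Doublet calling marked 13 of the 738, and 12 carried a barcode that another library also held. Of barcodes, young and old control shared 41, and the other pairs of libraries shared 5 to 17.

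To show what sequence lies at the starts of the genes that define and accompany the gate, the promoters of Trem2, Spp1, Gpnmb and Ctsd (the lysosomal protease cathepsin D) are printed from RefSeq, assembly GRCm38.p6, from 250 bases before to 50 bases after the start. Capitals mark the searched motifs on either strand, the E-box CACGTG that MiT/TFE factors of the lysosome bind and the AP-1 motif TGANTCA. The regions are chr17:48346151-48346450 (plus strand) for Trem2, chr5:104434861-104435160 (plus strand) for the first of the Spp1 starts, chr6:49036268-49036567 (plus strand) for Gpnmb and chr7:142387778-142388077 (minus strand) for Ctsd.
Trem2: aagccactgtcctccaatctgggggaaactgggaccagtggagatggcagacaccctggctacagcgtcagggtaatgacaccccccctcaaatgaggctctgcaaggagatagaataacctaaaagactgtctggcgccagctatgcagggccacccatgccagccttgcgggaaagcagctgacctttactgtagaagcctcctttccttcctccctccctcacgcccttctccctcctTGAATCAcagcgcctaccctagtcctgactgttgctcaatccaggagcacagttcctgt
Spp1: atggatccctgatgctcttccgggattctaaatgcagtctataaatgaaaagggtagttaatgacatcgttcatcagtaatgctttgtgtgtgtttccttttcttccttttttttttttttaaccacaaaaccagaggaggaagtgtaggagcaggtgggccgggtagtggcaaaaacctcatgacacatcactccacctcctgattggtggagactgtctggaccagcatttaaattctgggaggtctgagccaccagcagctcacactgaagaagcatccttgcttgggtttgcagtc
Gpnmb: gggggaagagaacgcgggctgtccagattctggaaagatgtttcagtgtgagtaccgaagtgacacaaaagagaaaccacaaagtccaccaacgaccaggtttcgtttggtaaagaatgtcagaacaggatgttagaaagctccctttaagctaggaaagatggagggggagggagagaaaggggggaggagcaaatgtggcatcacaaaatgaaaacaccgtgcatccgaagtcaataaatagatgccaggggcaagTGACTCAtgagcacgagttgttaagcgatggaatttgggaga
Ctsd: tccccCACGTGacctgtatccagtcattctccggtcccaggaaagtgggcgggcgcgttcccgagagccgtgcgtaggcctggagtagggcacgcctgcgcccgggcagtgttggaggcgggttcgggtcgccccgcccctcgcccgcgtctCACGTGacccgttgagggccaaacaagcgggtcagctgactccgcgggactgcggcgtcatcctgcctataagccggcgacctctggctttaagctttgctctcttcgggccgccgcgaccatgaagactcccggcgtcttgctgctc
The search let any base stand at N, so counts of the AP-1 motif are of this wide form. Trem2 held 1 match (TGAATCA) at -9 from the start and Gpnmb 1 (TGACTCA) at 8 bases after it. Ctsd held 2 E-boxes at -245 and -98, and neither motif was found in the Spp1 window or in those of Apoe, Lgals3, Acp5 and Syngr1. The E-box was present in 7.15% of all 32851 promoters of this length and in 10 of 37 promoters (27%) of the 32 lysosomal genes that matched the reference, of 42 listed. The AP-1 motif was present in 7.81% of all promoters and in 4 of those 37 (10.8%). Of the 21 promoters of the lipid-associated list, 3 held the E-box (Ctsd, Ctsl and Plin2) and 3 the AP-1 motif (Cd68, Cst7 and Itgax). The genes lie on chromosome 17 at 48346401 to 48354147 (Trem2), chromosome 5 at 104435118 to 104441050 (Spp1), chromosome 6 at 49036546 to 49070929 (Gpnmb) and chromosome 7 at 142375911 to 142388038 (Ctsd) in GENCODE vM21.

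Most gated macrophages met the rule through Trem2 and Spp1 and not through Gpnmb. Of the 738, 589 held Trem2 and Spp1 without Gpnmb, 107 held all 3, 39 held Trem2 and Gpnmb and 3 held Spp1 and Gpnmb. The median cell had 3 Trem2 UMIs and 3 Spp1 UMIs, and the 10% of cells with the most UMIs of a gene held 36.7% of the Trem2, 59.5% of the Spp1 and 95% of the Gpnmb UMIs. The largest single-cell values were 60 Trem2, 303 Spp1 and 194 Gpnmb UMIs. Trem2 was thus spread over the gated cells while Gpnmb was held by a few of them.

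**Figure D1:**
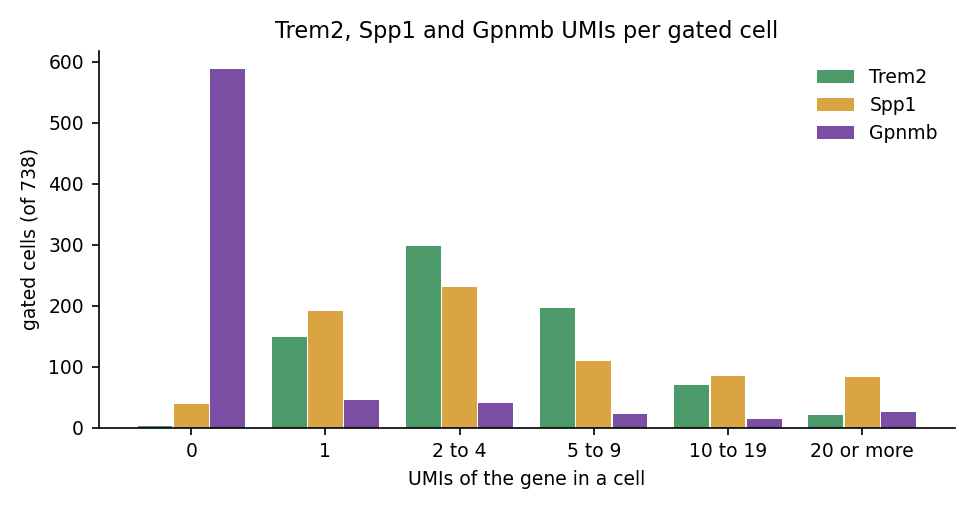
Number of gated macrophages (y axis, of 738) by the UMIs of Trem2, Spp1 or Gpnmb in the cell (x axis, in classes). Gpnmb is at 0 in 589 cells and at 20 or more in 26, while 299 cells have 2 to 4 Trem2 UMIs and 231 have 2 to 4 Spp1 UMIs.

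Detection moved with depth, and T cells show the background. Cells under 2000 UMIs were left out and the others thinned to 2000 UMIs. A Trem2 UMI was then present in 58.9% of gated cells, 34.3% of other C1q macrophages and 0.226% of T cells, which should lack it. Unthinned, the shares were 99.6%, 55.7% and 1.51%. Spp1 was present in 57.1%, 5.03% and 1.02% thinned and in 94.7%, 9.39% and 2.07% unthinned. Gpnmb was present in 12%, 0.506% and 0.226% thinned and in 20.2%, 1.24% and 0.376% unthinned. Median depths were 9088 UMIs in gated cells, 5282.5 in other macrophages and 3375 in the 1063 T cells.

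No measured gene of the lipid-associated list set the gated cells apart by the cut below, so the cells are named here by their rule. Against the other C1q macrophages of the same library, 0 of 21 lipid-associated genes with enough UMIs had a mean log2 ratio of at least 1 with the same sign in all 6 libraries, beside 0.194% of 5676 genes higher and 0.581% lower by that rule. Their median log2 ratio was 0.48, against -0.03 over all genes. The summed list was higher in gated cells in each library. It ran from 23448 against 20031 CPM in young HU to 27134 against 14189 CPM in old HU. The contrast is the one the rule used, so these are descriptions. Outside the rule genes, the highest mean log2 ratios were those of Syngr1 (2.15 ± 0.92, SD over 6 libraries), Acp5 (1.58 ± 1.13), Fabp5 (1.54 ± 1.93) and Lhfpl2 (1.38 ± 0.37). Acp5 and Fabp5 were higher in 5 of 6 libraries, the exception being young HU. The lowest ratios were those of resident macrophage genes, with 11 of 16 in that list past the fold, among them Ccl8 (-3.21 ± 1.59), C4b (-2.81 ± 1.52), Folr2 (-2.35 ± 1.30) and F13a1 (-2.00 ± 1.20). The rule capped related resident genes, so this too follows from the choice of cells.

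Just inside and outside the thresholds the cells were graded. Among macrophages with at most 1 resident gene, the 1300 cells with 1 programme gene, the 631 with 2 and the 107 with 3 held Fabp5 at 144, 218 and 2466 CPM, Ctsd at 520, 753 and 4037 CPM, and Lgals3 at 2141, 2096 and 5081 CPM. Cells with 2 programme genes were thus close to those with 1, outside the gate, and far from those with 3. Of these 3 groups, 73.5%, 77.3% and 82.2% of cells came from reload, and their median depths were 6591.5, 8754 and 11247 UMIs. At the other threshold, the 231 gated cells with 1 resident gene and the 83 cells outside with 2 held Folr2 at 155 and 267 CPM and Pf4 at 1324 and 1582 CPM.

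The share of C1q macrophages in the gate was lowest in HU and highest at reload. In control it was 21.2% for young (exact binomial 95% interval 17.5 to 25.2) and 8.61% for old (5.84 to 12.1). In HU it was 2.36% (1.30 to 3.94) and 3.99% (2.57 to 5.87), and at reload 26.1% (23.7 to 28.6) and 20.4% (18.1 to 22.8). At reload the share was 23.7 percentage points above HU in young (20.9 to 26.4) and 16.4 in old (13.4 to 19.2). Old minus young was -12.6 points in control (-17.5 to -7.45) and -5.71 points at reload (-9.08 to -2.32), while in HU the interval of the difference held 0 (-0.49 to 3.79). With all 3 programme genes required, the old minus young intervals in control (-2.78 to 1.30) and at reload (-2.99 to 0.051) also held 0. All intervals cover counting error only, since each group was 1 pool. Median depth moved with the share, at 3891 and 7132.5 UMIs per gated cell in young and old HU and 9534 and 9043.5 at reload. After thinning to 2000 UMIs per cell the shares for young and old were 9.76% and 3.06% in control, 1.17% and 3.02% in HU, and 12.9% and 9.56% at reload, with HU below reload at both ages.

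**Figure D2:**
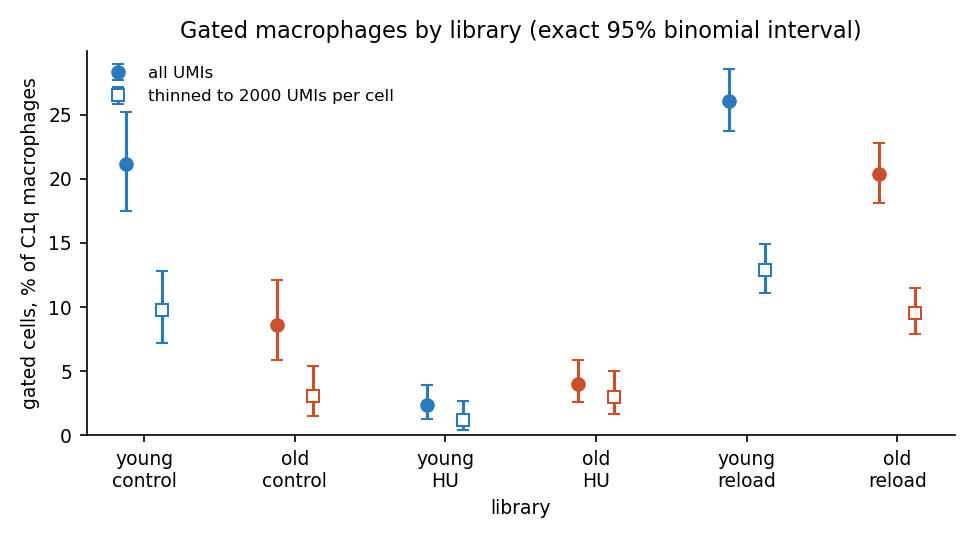
Gated macrophages as a percent of C1q macrophages (y axis) in the 6 libraries (x axis), young in blue and old in red, filled circles for all UMIs and open squares for cells thinned to 2000 UMIs, bars for exact 95% binomial intervals. Both HU libraries lie under 5%, and both reload libraries lie above 20% before thinning.

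Gpnmb-rich cells, taken as gated cells with at least 5 Gpnmb UMIs, were a small part of the gate. The class was set after the values were seen and is a range, not a type: 63 cells lay in it, 41 held 2 to 4 UMIs and 634 held 0 or 1. The 63 cells held 93.2% of all Gpnmb UMIs of the gate. There were 8 (young) and 3 (old) in control, 0 and 7 in HU, and 25 and 20 at reload. As a share of C1q macrophages they were 1.78% (0.772 to 3.48) and 0.890% (0.184 to 2.58) in control. In HU they were 0 of 592 cells, which allows a share of up to 0.621% (exact), and 1.16% (0.469 to 2.38). At reload they were 1.94% (1.26 to 2.85) and 1.70% (1.04 to 2.61). The intervals of the 5 libraries with such cells overlapped, and in young the HU upper limit lay below both the control and the reload interval. The class needs a fixed number of UMIs, and depth differed. The median gated cell held 3891 UMIs in young HU, 9880 in young control and 9534 in young reload. The part of depth in the 0 of young HU was not tested. Within the gate they were 29.2% of the old HU cells (12.6 to 51.1) and 7.44% to 10.3% of those in the control and reload libraries. Outside the gate, 6 other macrophages and 14 other kept cells reached 5 Gpnmb UMIs.

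Gpnmb-rich cells stood apart in lipid-associated and lysosomal genes. Over all gated cells with 0, 1, 2 to 4 and 5 or more Gpnmb UMIs, Fabp5, an intracellular fatty acid carrier, stood at 187, 487, 901 and 3183 CPM. Ctsd stood at 674, 1475, 1673 and 5186 CPM. The galectin Lgals3 stood at 2060, 2875, 2523 and 6007 CPM, and the scavenger receptor Cd36 at 91.3, 75.8, 108 and 380 CPM. Fabp5 and Ctsd were graded over the 4 classes, while Lgals3 and Cd36 were high in the last class alone.

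Comparing rich cells with those at 0 or 1 Gpnmb UMI, 10 of 21 lipid-associated genes were past the fold upward and 0 downward, and the same held for 10 of 39 lysosomal genes. Past the fold means a log2 ratio of at least 1 with the same sign in young control, young reload and old reload, the libraries compared singly, and 1.42% of 5568 genes were past it upward and 2.48% downward. The median log2 ratio was 1.10 in the lipid-associated list and 0.74 in the lysosomal list, against -0.01 over all genes. The largest past the fold outside the rule genes were Fabp5 (3.89), the vesicle protein Syngr1 (3.79), Ctsd (2.83), the glutathione transferase Mgst1 (2.40), Hebp1 (2.21), Anpep (2.07), Cd36 (1.96) and Pld3 (1.92). The cathepsins Ctsb (1.70) and Ctss (1.47), the saposin precursor Psap (1.66), Creg1 (1.64) and Cd63 (1.53) were also past it. Of 15 genes of the TREM2 signalling list, 0 were past the fold (median 0.05), as were 0 of 7 MiT/TFE factors and their partners (median -0.04). The carrier of cholesterol Abca1 stood at 0.18 and Abcg1 at 0.58.

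Chemokine, class II and immediate early genes were lower in the Gpnmb-rich cells. Past the fold downward were 6 of 15 chemokines (Cxcl2, Cxcl10, Ccl2, Ccl7, Ccl12 and Ccl5), 5 of 11 genes of the MHC II list, 9 of 20 immediate early genes, 6 of 19 interferon-induced genes and 7 of 12 cell cycle genes. Ccl7, a monocyte chemoattractant, stood at 1214, 707, 805 and 269 CPM over the 4 classes. Its receptor Ccr2 stood at 375, 347, 239 and 112 CPM, and the class II chain H2-Aa at 7888, 6318, 6927 and 3351 CPM. The recruited monocyte gene Plac8 stood at 202, 206, 168 and 34.4 CPM but was higher in the rich cells of young control (log2 ratio 0.79). C1qa, a complement gene of macrophages that the rule used, stood at 3017, 3054, 3863 and 2667 CPM and was not past the fold. It is no measure of the pan-macrophage list, which is given below.

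**Figure D3:**
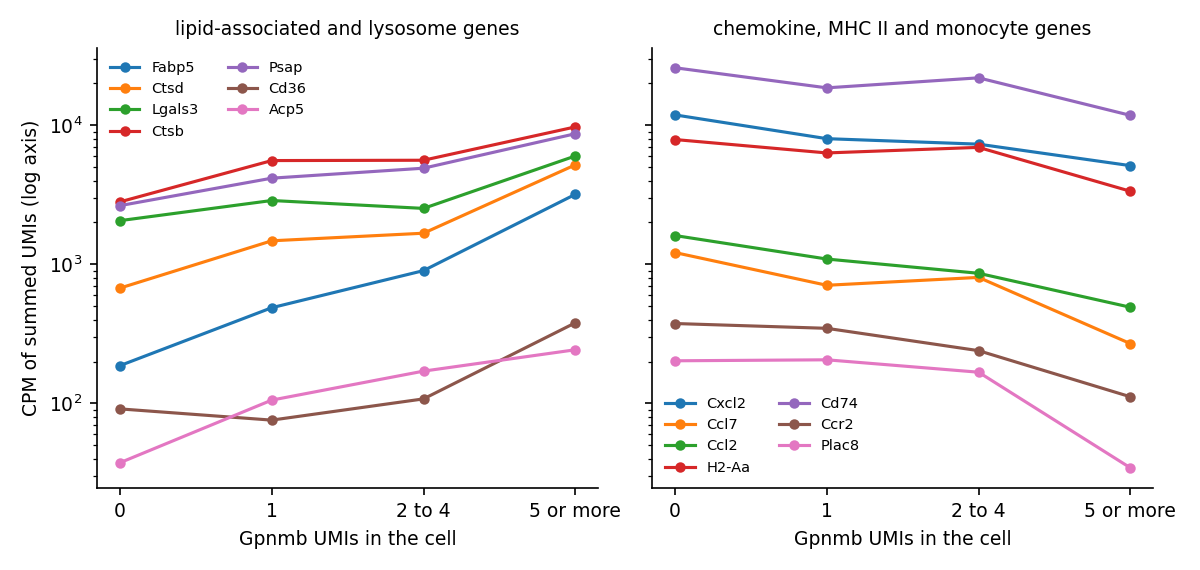
CPM of the summed UMIs of gated macrophages (y axis, log scale) by the number of Gpnmb UMIs in the cell (x axis) for lipid-associated and lysosomal genes (left) and chemokine, MHC II and monocyte genes (right). Fabp5 runs from 187 to 3183 CPM and Ctsd from 674 to 5186 CPM, while Ccl7 runs from 1214 to 269 CPM.

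Gpnmb-rich cells were deeper, with a median of 15498 UMIs against 8835 in those at 0 or 1. In cells thinned to 2000 UMIs the medians of the lipid-associated, lysosomal, chemokine, MHC II and immediate early lists kept their directions. The median cell held 118 UMIs of the lipid-associated list (quartiles 88.5 and 147) in the 63 rich cells, 49 (30 and 65) in 609 cells at 0 or 1 and 35 (25 and 49) in 3159 other C1q macrophages. For the lysosomal list the medians were 104, 43 and 38 UMIs. For the chemokines they were 10, 36 and 34 UMIs, and for the MHC II list 16, 83 and 84 UMIs. For the immediate early list they were 10, 17 and 22 UMIs, and for the pro-inflammatory genes that the study named 7, 17 and 15 UMIs. The pan-macrophage list was also higher in the rich cells, at 61, 35 and 35 UMIs. The recruited monocyte list was at 4 (quartiles 2 and 6), 4 (2 and 9) and 2 (0 and 6) UMIs. Its median was thus not lower in the rich cells than in those at 0 or 1, but its upper quartile was. The cell cycle list was at 1, 1 and 1 UMIs, too few to show a decrease. In the lipid-associated and lysosomal lists the gated cells at 0 or 1 Gpnmb UMI lay nearer to the other macrophages than to the rich cells. Of the 63 rich cells, 0 were marked as doublets and 1 had a barcode found in another library. A gradient with Gpnmb within single libraries was read in young control, young reload and old reload only. Acp5, at 2.30 over all libraries, was not past the fold and differed among them, with log2 ratios of 2.38 in young reload and 2.65 in old reload but -2.74 in young control, where 1 cell held 78.6% of its UMIs.

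By library, the level of Trem2 for young and old was 380 CPM (exact Poisson 95% interval 344 to 419) and 621 CPM (530 to 723) in control, 692 (496 to 938) and 778 (651 to 924) in HU, and 538 (514 to 563) and 514 (485 to 544) at reload. Spp1 stood at 964 (906 to 1025) and 297 CPM (235 to 371) in control, 388 (246 to 582) and 517 (414 to 638) in HU, and 977 (945 to 1010) and 1042 (1001 to 1084) at reload. Gpnmb stood at 367 (331 to 405) and 1001 CPM (884 to 1129) in control, 84.3 (27.4 to 197) and 867 (732 to 1020) in HU, and 202 (187 to 217) and 253 (233 to 274) at reload. Spp1 was thus low in old control and both HU libraries, and Gpnmb was high in old control and old HU, where 1 cell held 72.9% and 32.2% of its UMIs. All 3 chose the cells, and their levels are a description.

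Apoe, which the rule did not use, stood at 1951 (young) and 7906 CPM (old) in control, 8418 and 8639 in HU, and 13694 and 10903 at reload. It was lowest in young control and highest at reload. The other C1q macrophages stood at 2508 and 3586, 6205 and 3775, and 8544 and 5246 CPM, with young control also lowest. An Apoe UMI was present in 54.7% (young) and 51.7% (old) of gated control cells and in 98.8% and 95.4% at reload, with T cells at 4.61% over all libraries. Control, HU and reload differ in label prefix, and control also in flow cell string. In old control 1 cell held 41.7% of the Apoe UMIs, and 15 of 29 cells held any. Fabp5 stood at 606 and 459 CPM in control, 0 and 725 in HU, and 590 and 694 at reload, with 0 UMIs in the 14 young HU cells. Ctsd stood at 1009 and 1046, 287 and 1396, and 1495 and 1307 CPM.

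**Figure D4:**
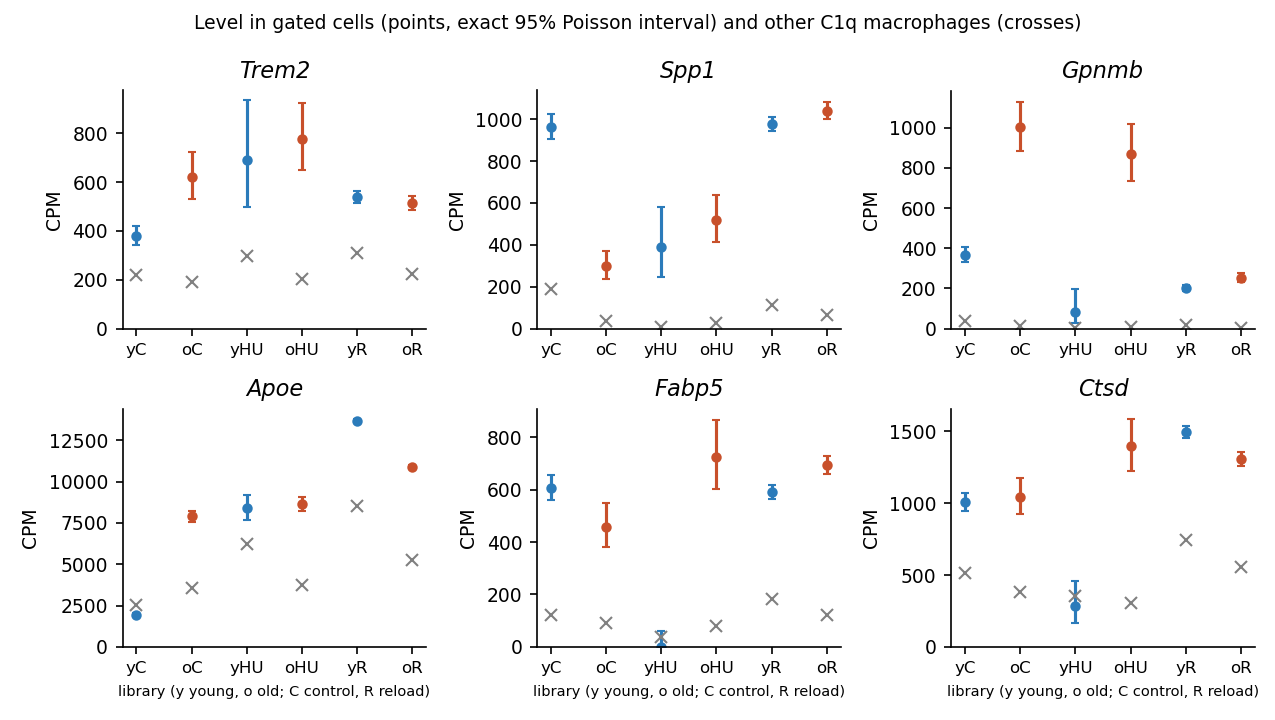
CPM of Trem2, Spp1, Gpnmb, Apoe, Fabp5 and Ctsd (y axes, linear from 0) in the gated macrophages of each library (points with exact 95% Poisson intervals, young blue, old red) and in the other C1q macrophages (grey crosses). Apoe is at 1951 CPM in young control and at 13694 CPM in young reload, and Gpnmb is above 850 CPM in old control and old HU only.

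Reload was compared with HU over both ages in 1 additive fit of age and treatment to the 6 library sums with edgeR, where the spread is what age and treatment do not explain (2 residual degrees of freedom). The test used edgeR's quasi-likelihood F with Benjamini-Hochberg adjustment over 6173 genes. Between HU and reload, 34 genes rose (0.551% of those tested) and 16 fell (0.259%). DESeq2, which kept 3660 genes, called 42, 37 of them among the 50. Of 15 chemokines, 4 rose (Ccl7, Ccl12, Ccl8 and Ccl9) and 0 fell, with a median log2 change of 1.22 against 0.08 over all genes. Of 21 lipid-associated genes and 42 lysosomal genes, 0 passed in either direction, with medians of 0.20 and 0.17.

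Ccl7 stood at 50.6 (young) and 220 CPM (old) in HU and at 1024 and 1467 CPM at reload (log2 change 3.18, edgeR adjusted p = 0.00183). Its young HU level rests on 3 UMIs, with a log2 ratio of 4.34 (2.79 to 6.62) in young and 2.74 (2.27 to 3.25) in old. Lst1, a leukocyte transcript of the MHC region, stood at 33.7 and 65.4 CPM in HU and 370 and 417 CPM at reload (log2 change 2.90, edgeR adjusted p = 0.00349). Il10, an anti-inflammatory cytokine, had 0 UMIs in both HU libraries and 133 and 202 CPM at reload, so with HU set to 3 UMIs per library it was higher by at least 1.40 on the log2 scale in young and 3.50 in old. Ccr2, the receptor of monocyte chemoattractants, stood at 84.3 and 77.2 CPM in HU and 373 and 442 CPM at reload (log2 change 2.50, edgeR adjusted p = 0.0171). Isg15, an interferon-induced modifier, stood at 16.9 and 119 CPM in HU and 476 and 517 CPM at reload (log2 change 2.90, edgeR adjusted p = 0.0171). For each of these the HU and reload libraries did not overlap, but the fit chose them for that difference, so this adds no support.

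Among the genes that fell, Ddit4, a stress-induced inhibitor of mTOR, stood at 236 (young) and 149 CPM (old) in HU, 26.5 and 30.1 CPM in control and 20.5 and 28.0 CPM at reload (log2 change -2.87, edgeR adjusted p = 0.00314). Tsc22d3, a glucocorticoid-induced regulator, stood at 877 and 208 CPM in HU and 135 and 79.0 CPM at reload (log2 change -2.09, edgeR adjusted p = 0.0171). Fkbp5, also glucocorticoid-induced and named after its values were seen, stood at 101 and 53.5 CPM in HU and 13.2 and 6.80 CPM at reload (log2 change -2.88, edgeR adjusted p = 0.0272). The immediate early gene Ier2 fell from 658 and 309 CPM to 98.5 and 85.0 CPM (log2 change -2.27, edgeR adjusted p = 0.00317). Tsc22d3 lost its call without young HU, and Fkbp5 lost it without young control, old HU, young reload or old reload. The other C1q macrophages of the same libraries held Ddit4 at 399 and 92.4 CPM in HU and 15.5 and 10.7 CPM at reload, and Tsc22d3 at 1040 and 398 CPM and 153 and 82.7 CPM.

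The HU side of these calls rests on 14 and 24 cells. For thinning, cells under 2000 UMIs were left out and the rule was applied again to the thinned cells. This left 5 (young) and 14 (old) gated cells in HU, 158 and 104 at reload, and 1018 genes to test. Of these 0 passed, with 118 at unadjusted p under 0.05 in edgeR, and DESeq2 was not run there. Depth and the loss of cells and genes cannot be told apart in that 0. Without the cells with 2 or more Gpnmb UMIs 13 genes passed, all among the 50, Ccl7, Lst1, Il10, Ddit4 and Ier2 included and Ccr2, Isg15, Tsc22d3 and Fkbp5 not. Without each gene's top cell in every library 230 passed, 46 of them among the 50. Of the 230, 178 rose, and the median log2 change over all genes was 0.34, against 0.08 with all cells. A top cell is a larger part of the sums of 14 and 24 HU cells than of the reload sums, so this is no even check. Serpinf1, Comp and Cyr61, called lower, were each held mostly by 1 cell in old HU (94.1% of the Serpinf1 UMIs there) and were not called without it. The fibroblast list, of which 2 of 10 genes reached 100 UMIs and Lum, Pdgfra and Dpt were at 0, summed to 1408 CPM in old HU and to 173 to 270 CPM in the other 5 libraries. An RNA quality sign moved with the comparison: Gm42418, a transcript that overlaps ribosomal RNA and is named here after its values were seen, stood at 2750 and 6031 CPM in HU and 22242 and 25528 CPM at reload, with control at 20130 and 14491 CPM (log2 change 2.48, edgeR adjusted p = 0.0019). Its part in the result was not tested.

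Old against young over all 3 treatments, in the same fit, gave 4 genes that rose (0.0648% of 6173) and 0 that fell (0.0%), with 131 genes at unadjusted p under 0.05. DESeq2 called 2 higher and 0 lower. The 4 were the neutrophil genes S100a9 (log2 change 3.52, edgeR adjusted p = 5.18e-05), Retnlg (4.40, edgeR adjusted p = 0.000335) and S100a8 (3.098, edgeR adjusted p = 0.000335), and the cell cycle gene Ube2c (1.74, edgeR adjusted p = 0.0357). Of the lipid-associated list 0 of 21 passed, of the lysosomal list 0 of 42, of the chemokines 0 of 15 and of the TREM2 signalling list 0 of 15.

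The neutrophil genes were carried by single barcodes. S100a9 stood at 221 and 2924 CPM in young and old control, 0 and 11.9 in HU, and 6.47 and 58.2 at reload, and 1 cell held 96.3% of its 777 UMIs in old control and 1 cell 95.3% of its 234 in young control. Of the neutrophil list, 5 of 10 genes reached 100 UMIs in the gated cells and Ly6g was at 0. The list summed to 494 and 6096 CPM in control, 16.9 and 71.3 in HU, and 139 and 196 at reload. Without the top cell of each gene in each library 6 genes passed, S100a8 being the only one of the 4 among them, and without doublets 2 passed (S100a9 and Ube2c). Ube2c in old HU was 24 UMIs in 1 cell, and its call was lost without either reload library, as was that of Retnlg without old control.

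At reload, where most gated cells were, old and young differed in few programme genes. Of 5018 genes with at least 100 UMIs in the 2 libraries, 0.458% were past a log2 ratio of 1 upward in old and 0.658% downward, with no test, since each was 1 pool. Apoe was at a log2 ratio of -0.33 old over young (95% counting interval -0.35 to -0.31), Gpnmb at 0.33 (0.17 to 0.48), Spp1 at 0.09 (0.02 to 0.17) and Trem2 at -0.07 (-0.17 to 0.04). Small ratios turned sign under alternatives, Spp1 to -0.27 after thinning and Trem2 to 0.28 with all 3 programme genes. Gpnmb was at -0.42 in cells with at most 1 Gpnmb UMI. That limit selects on Gpnmb and removes the cells with 97.9% of its UMIs in the gate, so it is no check of this ratio. In the lipid-associated list 2 of 21 were past the fold, both upward, Fabp4 (1.23, 0.78 to 1.69) and the lipoprotein lipase Lpl (1.13, 0.81 to 1.45). Of 39 lysosomal genes and 15 chemokines 0 were past it, with medians of -0.20 and 0.14 against -0.06 over all genes. The growth factor Igf1 was at -1.30 (-1.83 to -0.79), from 58 young cells and 22 old cells.

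Recruited monocyte genes were lower in the old reload cells. In that list 5 of 13 were past the fold downward and 0 upward, with a median of -0.56. The list summed to 3889 (young) and 2956 CPM (old) at reload, but to 1040 and 1392 CPM in control and 186 and 1194 CPM in HU, and over all treatments the edgeR fit called 0 of 12 with age (median log2 change 0.49). Ly6c2, a surface antigen of inflammatory monocytes, stood at 535 CPM in young (85 of 336 cells) and 109 CPM in old (30 of 240 cells), a log2 ratio of -2.30 (-2.49 to -2.11). Hp, haptoglobin, stood at 49.5 and 12.3 CPM (-2.01, -2.63 to -1.43), and Plac8 at 269 and 131 CPM. The antigen Ly6a stood at 534 and 159 CPM (-1.74, -1.91 to -1.58), and Cfb, complement factor B, at 73.7 and 21.7 CPM (-1.77, -2.23 to -1.33). Ccr2 stood at 373 and 442 CPM and was not past the fold. The other C1q macrophages held Ly6c2 at 366 CPM in young and 102 CPM in old, Ly6a at 418 and 166 CPM and Plac8 at 321 and 210 CPM, with old lower here too.

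Among the genes higher in old reload were the epidermal growth factor receptor ligand Areg at 37.7 and 164 CPM in young and old (2.12, 1.83 to 2.42; 20 and 34 cells) and Lyz1 at 67.0 and 262 CPM (1.97, 1.75 to 2.19; 43 and 48 cells). The collagenase Mmp13 was at 2.29 (1.64 to 2.98) in 13 and 14 cells. Retnla, a gene of alternatively activated macrophages, was at 2.39 (2.21 to 2.57), but 1 young cell held 92.5% of its young UMIs, and without the top cell of each library the ratio was 5.63. S100a9 (3.17, 2.52 to 3.87) rested on 3 young and 8 old cells and was at -1.40 after thinning. Ccl17 (2.43, 1.79 to 3.12) was held by 4 cells in each library.

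**Figure D5:**
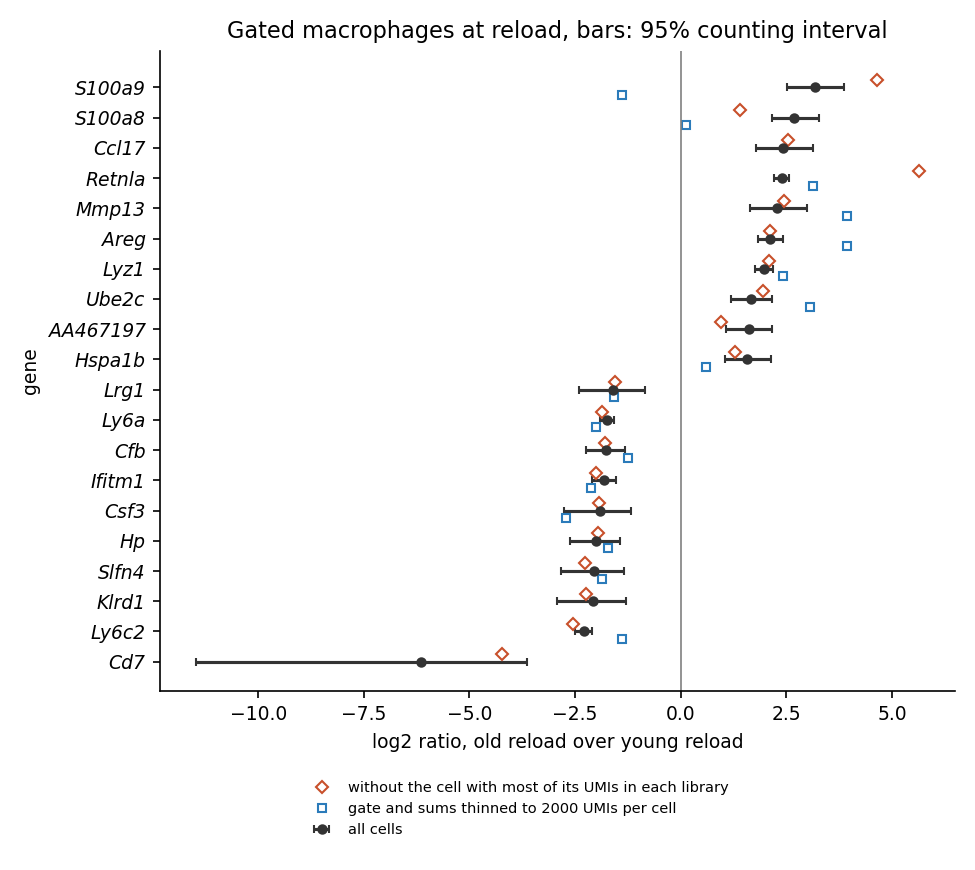
Log2 ratio of old over young reload (x axis) in gated macrophages for the 10 genes with the largest ratios each way (y axis). Black points show all cells with 95% counting intervals, red diamonds leave out the cell with most UMIs of the gene in each library, and blue squares rest on cells thinned to 2000 UMIs. S100a9 moves from 3.17 to -1.40 after thinning, while Ly6c2, Hp, Cfb and Ly6a stay below -1.

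Between the control libraries, 95 young and 29 old cells, 2.71% of 1588 genes were past the fold upward in old and 4.85% downward. Apoe was higher in old (log2 ratio 2.02, 1.93 to 2.11), as was the phospholipid transfer protein Pltp (1.13, 0.93 to 1.32), and Spp1, a rule gene, was lower (-1.70, -2.05 to -1.37). As given above, 1 cell held a large part of the old Apoe UMIs. Apoe in the other C1q macrophages was also higher in old, but by less. Of the 11 oxidative stress genes 5 were past the fold downward and 0 upward: Srxn1 (-2.23), Gclm (-2.25), Prdx1 (-1.73), Mt2 (-1.46) and Txnrd1 (-1.13). The haem oxygenase Hmox1 stood at 3221 CPM in young and 636 CPM in old (-2.34, -2.57 to -2.12), and at 4100 and 3370 CPM in the other C1q macrophages. The heat shock gene Hspa1b stood at 602 and 37.6 CPM (-4.00, -5.07 to -3.11) and the immediate early gene Fos at 430 and 2040 CPM (2.25, 2.06 to 2.43). The lipid-associated list had 2 of 20 genes upward (Apoe and Axl) and 1 downward (Cd9).

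Whether age acted differently on gated cells and on other C1q macrophages was tested as an interaction in edgeR over 12 sums, 2 per library, with the library as a block. The log2 change with age was higher in gated cells for 25 of 9697 genes (0.258%) and lower for 6 (0.0619%). Outside the rule genes these included Apoe (difference 1.01, edgeR adjusted p = 1.02e-08), Pltp (0.95, edgeR adjusted p = 0.00012) and the lysosomal Ctss (0.87, edgeR adjusted p = 0.0001785) and Ctsd (0.92, edgeR adjusted p = 0.00122). Apoe in gated cells was higher in old in control, near young in HU and lower at reload. In other macrophages the old level was also above the young in control and below it at reload, and in HU it was below the young. Of the lipid-associated list 4 of 23 rose relative to the other macrophages and 0 fell (Apoe, Fabp5, Ctsd and Ctsb). Without each gene's top cell 8 genes passed, with Apoe and Pltp among the 6 shared, and Ctss and Ctsd not. Without TMM factors Apoe, Pltp and Ctsd kept their calls and Ctss, Fabp5 and Ctsb did not. Fabp5 and Ctsb also lost theirs without a filter, against resident macrophages and without top cells. Against macrophages with few programme and resident genes, Ctsd and Fabp5 lost their calls, and Apoe, Pltp, Ctss and Ctsb kept theirs. The rule genes Gpnmb and Trem2 were also called higher in the main fit. DESeq2 called 1, Gpnmb.

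The change from HU to reload was higher in gated cells than in other C1q macrophages for 40 genes (0.412%) and lower for 21 (0.217%). Of the resident macrophage list 11 of 20 were in the first group and 0 in the second. Pf4, a platelet factor chemokine also made by macrophages, stood at 2446 (young) and 903 CPM (old) in HU gated cells and 1205 and 1316 CPM at reload, against 5890 and 4882 CPM and 1271 and 1688 CPM in the others (difference 1.86, edgeR adjusted p = 1.95e-15). F13a1, a coagulation factor subunit, stood at 287 and 77.2 CPM in HU and 422 and 420 CPM at reload in gated cells, and at 1475 and 895 CPM and 588 and 650 CPM in the others (difference 2.61, edgeR adjusted p = 2.21e-14). The rule caps resident genes in gated cells, so this difference is not independent of it. The median over all genes was 0.25 with TMM factors and 0.06 without, and both scalings called Pf4 and F13a1 higher. Without TMM factors 24 genes were higher and 29 lower. Without each gene's top cell 32 passed, 26 of them shared, and DESeq2 called 8, Pf4 and F13a1 included. The median over all genes without top cells was 0.62. The few gated HU cells lose the larger part of their sums there, so it is no even check.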

How the data were processed

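CD45+ DAPI- cells of pooled solei were profiled in 6 droplet libraries, 1 per age and treatment. The deposited files hold raw UMI counts per gene and barcode, which the authors made with Cell Ranger 3.1.0 against mm10 per the submitters' processing notes. Each deposited barcode held at least 500 UMIs. Members and gene lists were chosen with earlier results of these data known, and the class of 5 or more Gpnmb UMIs after the values were seen.

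UMIs were summed over gated cells per library and scaled to CPM. Cell classes of a library were compared as log2 ratios of CPM + 10, and libraries as log2 ratios of summed counts per total, for genes with at least 100 UMIs. Library sums were tested with edgeR 4.0.16 (TMM, filterByExpr, quasi-likelihood test, Benjamini-Hochberg, threshold 0.05), and with DESeq2 1.42.0 as an alternative. In the fit of age and treatment the p-values measure the spread between these pools, which leaves 2 residual degrees of freedom. In the interaction fit the library block takes up differences between pools. Its p-values measure only how the difference between gated and other cells spreads over the libraries, also with 2 residual degrees of freedom. Scrublet in scanpy 1.11.5 marked doublets at 0.8% per 1000 barcodes, which were kept. Intervals are exact at 95% and cover counting error only. The study's tests over single cells were not used, since cells of 1 pool are not replicates. Scripts were tested on simulated data.

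Named genes were the rule genes and Apoe, of each list the 4 with most UMIs and its highest and lowest ratio, the 10 largest ratios each way at reload and against other macrophages, 5 in other comparisons, and up to 10 called genes each way. Others named were chosen after their values were seen. Alternatives changed the normalization, filter, gate, thinning, mitochondrial limit (5% or 20%), doublets and libraries.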

Additional observations from a re-analysis of the deposited data

Results flagged for a closer look

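The number of genes whose age difference in gated macrophages differed from that in the other C1q macrophages by the interaction test was 31, and for the reload to HU difference it was 61. In the first test S100a9 (2.66) was held to 95.3% and 96.3% by 1 cell in young and old control, and S100a8 (2.22) to 94.7% and 95.2%. Hmox1 (-1.15) stood at 3221 CPM in gated cells of young control and 636 CPM in old control. Mgp (6.28) and Dcn (6.71) were present in old HU mainly through 1 cell each, at 2163 and 1052 CPM, and Cma1 (-5.14) in young control through 1 cell with 98.3% of its UMIs. Col1a1 (-7.07) and Sparc (-3.68) stood at 24.4 and 92.9 CPM in the other macrophages of old reload and at 0 and 0.85 CPM in the gated cells.

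In the second test the differences were 6.51 for S100a9, 4.795 for S100a8, 1.86 for Pf4 and 2.61 for F13a1. They were -11.7 for Dcn, -12.9 for Thbs4, -7.99 for Bgn and -3.02 for Ube2c, each held in old HU by 1 gated cell. Where a group holds 0 UMIs the fitted size depends on the prior count and is not a fold.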

How the results depend on the processing

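Each group was 1 pool, and HU held 14 and 24 gated cells, so intervals cover counting error only. No paired analysis was possible because each group has 1 library and replicate number 1 names no shared animals or day. The share difference of old minus young HU reversed to -0.98 points with 1 programme gene required. For old minus young control it was -6.71 points thinned, -0.82 with all 3 programme genes (interval -2.78 to 1.30), -18.1 with at least 1 and -4.82 over all kept cells; for reload, -1.47 with all 3 (-2.99 to 0.051). Reload minus HU in young was 11.7 thinned, 3.93 with all 3, 47.2 with at least 1, 28.0 without a resident limit, 16.6 with 0 resident genes and 12.8 over all kept cells, and in old 6.54, 2.14, 40.1, 12.1 (0 resident genes) and 8.63 (all kept cells).

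Genes called with age (4) became 2 with DESeq2, 25 without a filter, 11 with HU and reload only, 2 without doublets, and 0 thinned or with all 3 programme genes (15 and 38 at unadjusted p under 0.05, edgeR). Thinning left 1018 genes to test and the rule of all 3 programme genes 1605, each from fewer cells. Leaving out 1 library gave 16 to 47, namely 16 without young control, 22 without old control, 31 and 32 without young and old HU, and 47 and 43 without young and old reload. Genes called between reload and HU (50) became 274 without a filter, 204 with HU and reload only, 0 thinned, 2 with all 3 programme genes, 33 at a 5% mitochondrial limit, 230 without top cells and 13 without cells of 2 or more Gpnmb UMIs. Leaving out 1 library gave 79 to 225, namely 196 and 171 without young and old control, 177 and 225 without young and old HU, and 79 and 84 without young and old reload.

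The age interaction (31) became 1 with DESeq2, 19 without a filter, 20 against resident macrophages and 8 without top cells. The reload interaction (61) became 8 with DESeq2, 36 against resident macrophages, 34 against macrophages with few programme and resident genes, and 32 without top cells. Without TMM factors it was 53, with 24 higher and 29 lower against 40 and 21.

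Among log2 ratios of at least 1 in size, those that reversed were S100a9 old over young at reload (-1.40 thinned), Retnla there (-4.87 with all 3 programme genes), Gpnmb reload over young HU (-2.73 with at most 1 Gpnmb UMI, -0.077 with cells weighted equally) and Spp1 reload over old HU (-0.16 with at most 1 Gpnmb UMI). Of the smaller ratios of old over young at reload, Gpnmb (-0.42) and Fabp5 (-0.39) turned negative with at most 1 Gpnmb UMI, Spp1 (-0.27) after thinning, and Ctsd (0.18) and Trem2 (0.28) positive with all 3 programme genes. The cause was not tested. Leaving out shared barcodes and top cells and restricting to cells with at most 1 Gpnmb UMI were chosen after seeing the data. The last of these selects on Gpnmb itself, so the Gpnmb values under it are no check of the Gpnmb ratios. Of 700 such ratios with a value, 204 at reload between ages and 158 (old) and 161 (young) between reload and HU moved by less than their counting error, and 31 had no value.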
